A study of Nothobranchius furzeri and Aphyosemion australe and Iconisemion striatum with 145 samples.

Results

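In African turquoise killifish embryos about to reach the stage at which diapause can begin, transcripts of the genes that copy and remove DNA methylation were all present, but their levels did not keep to one ratio between embryo pools. The maintenance methyltransferase gene dnmt1 was close to level across the libraries, at 80.9 to 90.1 CPM (the counts that a library of 1000000 reads would hold), or 75.2 to 94.9 CPM with libraries scaled by edgeR's TMM. Its partner uhrf1 lay at 18.01 CPM in library 2, against 39.3 to 44.8 CPM in the other libraries. The dioxygenase gene tet3 lay at 54.1 CPM in library 1, against 25.4 to 31.5 CPM in the others. Such spread was common in these libraries, where 85.4% of the genes tested differed beyond counting noise. The ratio of highest to lowest library was larger for uhrf1 and tet3 than in 82.6% and 73.0% of genes within 2-fold of their mean levels. Ratios between other genes were not computed for comparison. The genes described are dnmt1, uhrf1, tet1, tet2 and tet3, chosen by name for their role, and all 5 were found among the 25122 genes counted in this species.

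The libraries came from 4 pools of 8 to 10 embryo bodies of the African turquoise killifish, an annual fish of ephemeral ponds, freed of chorion, enveloping layer and yolk. The embryos still had a Kupffer's vesicle and 15 to 22 somites according to the labels, and the methods place them about a day before the heart begins to beat. They came from first clutches of young parents, most of which were expected to skip diapause, and the methods name the inbred GRZ strain for this species. No genotype, drug or time differed between the pools, so every comparison below is between libraries of one group. Nothing in the labels says whether the pools came from separate parents, and the tests measure only the spread between these libraries. The lyretail and red-striped killifish libraries of the series are counted on features without gene names and are not used here, and the single-embryo diapause and knockout libraries are not analysed here.

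In vertebrates DNA methylation sits mostly on cytosines of CpG sites and is kept through cell division by a maintenance step. UHRF1 binds the hemimethylated CpG left behind the replication fork and brings DNMT1, which methylates the new strand. TET proteins oxidise methylcytosine in the opposite direction, using 2-oxoglutarate as a cofactor, and the oxidised base is either diluted by replication or cut out by thymine DNA glycosylase. In zebrafish, loss of dnmt1 or uhrf1 disturbs the growth of several organs, and tet2 and tet3 together are needed for blood stem cells to form.

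The libraries held 25985703 to 41191533 counted reads, library 2 the most. Every pair of libraries differed by more than counting noise, with a chi-square per degree of freedom of at least 82.9. Each library counted as 1 replicate by its title. The chi-square cannot show that the pools were independent, since reads after amplification are not independent molecules. Library 2 was the farthest from the rest: over the 9150 genes with at least 5 CPM in every library, the median absolute deviation from the gene's mean was 0.34 on the log2 scale in library 2, against 0.14 to 0.25 in the others, and its 10 most abundant genes took 7.15% of its counts, against 6.20% to 6.32%. Markers of the labelled embryo stage were present, among them myf5 at 59.8 to 98.6 CPM and sox3 at 93.1 to 200.7 CPM. The limit of 1 CPM in every library was passed by 9 of 9 listed somite and muscle precursor markers and 6 of 7 neural tube markers. For these lists 12 and 10 names were searched, and 53.7% of all genes passed the limit. So did 4 of 4 listed blood, 3 of 3 enveloping layer, 7 of 10 yolk syncytial layer and 3 of 6 germ cell markers. For notochord and Kupffer's vesicle, 9 names were searched and 4 genes found. Of these, shh, foxa2 and tbxta (LOC107395189) passed this limit, at 7.54 to 17.7, 25.1 to 59.6 and 19.7 to 43.3 CPM. The ciliary gene foxj1a (LOC107396501) did not, at 0.0770 to 0.671 CPM. Markers listed for the layers that dissection removes were also measured. The 3 listed enveloping layer markers, krt5, agr1 and ppl, summed to 143.5, 83.6, 187.9 and 119.0 CPM in libraries 1 to 4, and the 10 listed yolk syncytial layer markers to 258.3, 238.2, 239.7 and 176.9 CPM, with none of either list at 0 in any library. Most of the first sum was krt5 (LOC107391339), at 50.8 to 129.9 CPM, and the highest of the second list was apoeb (LOC107379395), at 91.3 to 147.8 CPM, while apoa2 (LOC107379396) had 58.6, 7.57, 51.9 and 9.59 CPM. Whether these reads came from such layers or from the body was not tested.

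All 5 genes had at least 1 CPM in every library, as did 53.7% of all genes. All of them also passed 5 CPM, which 36.4% of genes did. Counts were not divided by transcript length, since no lengths of the counted genome build were at hand, so the levels of different genes are given side by side and not ranked. Levels of one gene in different libraries, and changes of a ratio between libraries, do not depend on length.

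**Figure D1:**
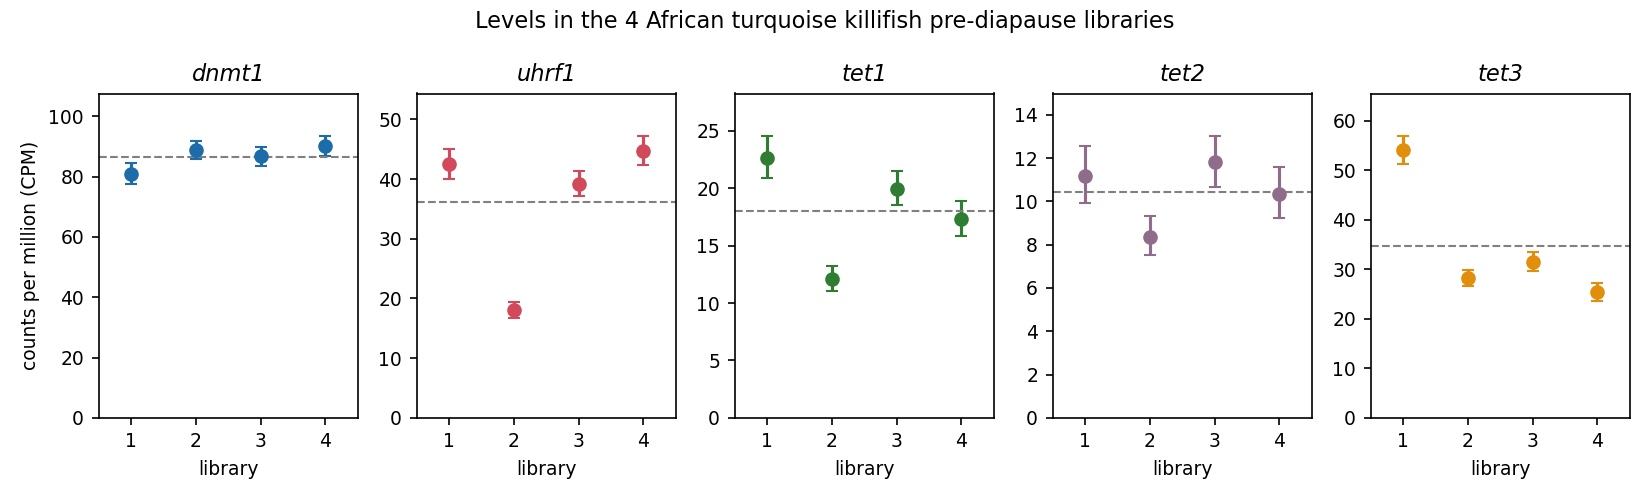
Level of each gene in the 4 libraries, in CPM from 0 on the vertical axis and the library number on the horizontal axis. Bars are exact 95% Poisson intervals of the count and dashed lines the mean of the libraries. The dnmt1 points stay between 80.9 and 90.1 CPM, the uhrf1 point of library 2 lies at 18.01 CPM and the tet3 point of library 1 at 54.1 CPM.

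dnmt1, the maintenance methyltransferase, had 80.9, 88.8, 86.7 and 90.1 CPM in libraries 1 to 4, with 2102 to 3656 reads behind each value. Its mean was 86.6 ± 4.05 CPM (SD, n = 4), a coefficient of variation of 4.68%, and its highest library exceeded its lowest by 1.11 times. Only 0.960% of the 2083 genes within 2-fold of its mean level had a smaller ratio of highest to lowest library. This rank depends on how libraries are scaled. With edgeR's TMM scaling, dnmt1 had 75.2, 88.2, 94.9 and 89.0 CPM, a ratio of 1.26, and 11.3% of those genes had a smaller one.

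uhrf1, whose product recognises hemimethylated CpG, had 42.5, 18.01, 39.3 and 44.8 CPM in libraries 1 to 4. The value of library 2, the deepest library, lay below all others, with 742 reads and an exact 95% Poisson interval of 16.7 to 19.4 CPM. The mean was 36.1 ± 12.3 CPM (SD, n = 4) and the highest library exceeded the lowest by 2.49 times. That ratio was larger than in 82.6% of the 3635 genes within 2-fold of its mean level, and without library 2 it was 1.14. Only 3.32% of the 9150 genes at 5 CPM or more were further below their own mean in library 2.

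The 3 TET genes encode the dioxygenases that oxidise methylcytosine. tet1 had 22.7, 12.1, 20.0 and 17.3 CPM in libraries 1 to 4, with a mean of 18.02 ± 4.503 CPM (SD, n = 4). tet2 had 11.2, 8.38, 11.8 and 10.4 CPM, with a mean of 10.4 ± 1.499 CPM (SD, n = 4). Both were lowest in library 2. The highest library exceeded the lowest by 1.87 times for tet1, or 1.31 times without library 2, and by 1.41 times for tet2, or 1.14 times without library 2. tet3 had 54.1, 28.2, 31.5 and 25.4 CPM, with a mean of 34.8 ± 13.1 CPM (SD, n = 4). Its interval in library 1 of 51.3 to 57.0 CPM was far above those of the other libraries, and without library 1 the ratio of highest to lowest was 1.24 instead of 2.13. The ratio of 2.13 was larger than in 73.0% of the 3736 genes within 2-fold of the mean level of tet3. For tet1 and tet2 the ratios over all libraries were larger than in 60.0% of 4837 and 19.7% of 5108 such genes. In library 1, 98.8% of the 9150 genes deviated less upward than tet3, and in library 4, 1.72% deviated further downward. These ranks are not independent, since library 1 raises the mean of tet3, which was 28.4 CPM without it. Deviations were also smallest in library 4, with a median of 0.14 on the log2 scale.

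Differences between libraries were set against counting noise with a chi-square test of equal shares of the library totals, Benjamini-Hochberg adjusted over the 19307 genes with at least 20 reads in all. All 5 genes passed an adjusted p of 0.05, as did 85.4% of the genes tested, so that passing is the rule in these libraries. Per degree of freedom, chi-square on library totals came to 162 for uhrf1, 142 for tet3 and 40.1 for tet1, against 8.16 for tet2 and 5.29 for dnmt1. It was 5.89 for uhrf1 and 10.1 for tet1 without library 2, and 10.5 for tet3 without library 1. With TMM scaling it was 23.0 for dnmt1 and 12.2 for tet2, so the order of these genes depends on the scaling. In dnmt1 the adjusted chi-square p was 0.00168 and became 0.388 without library 1 and 1.81e-14 with TMM scaling, and in tet2 it was 3.21e-05 and became 0.256 without library 2. A larger count makes the same difference more visible, and dnmt1 had the most reads of the 5 genes. The biological coefficient of variation from edgeR, which draws each gene towards genes of similar level, was 0.335 for uhrf1, 0.304 for tet3, 0.287 for tet1, 0.268 for tet2 and 0.259 for dnmt1. This order changed when library 1, 2 or 4 was left out. Without library 2 the value was 0.203 for uhrf1, 0.244 for tet3, 0.209 for tet1, 0.217 for tet2 and 0.210 for dnmt1. Without library 1, tet3 at 0.281 lay below tet1 at 0.305 and tet2 at 0.292. Without library 4, tet1 at 0.339 lay just above tet3 at 0.337.

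**Figure D2:**
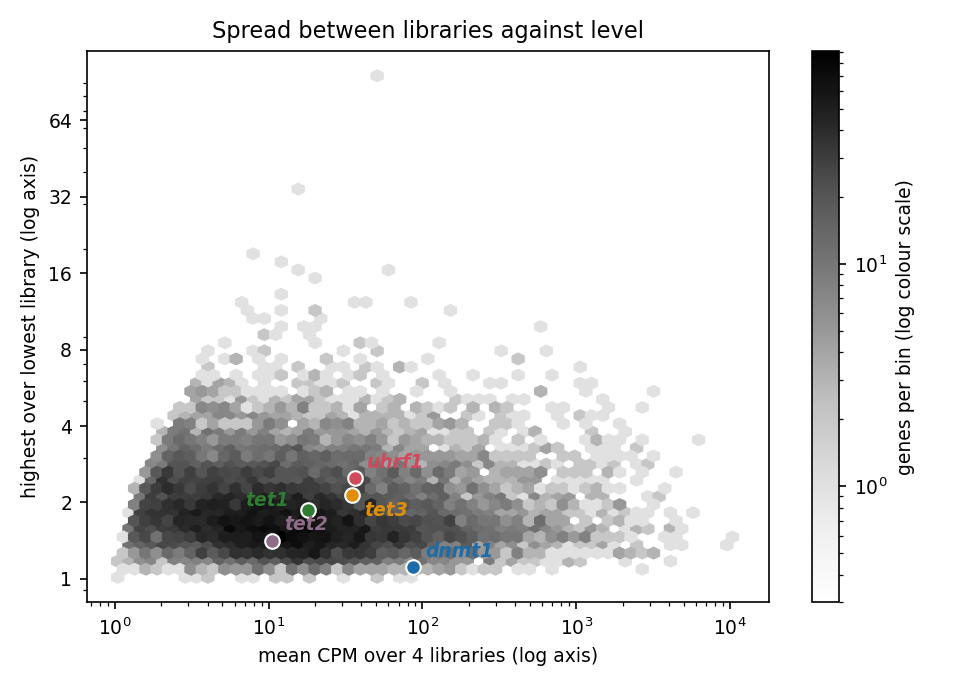
Mean level in CPM on a log axis against the ratio of the highest to the lowest of the 4 libraries on a log axis. Grey hexagons count the 13479 genes with at least 1 CPM in every library, and coloured points are the 5 genes, with dnmt1 at a ratio of 1.11 and uhrf1 at 2.49.

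Ratios of reads between these genes within a library do not change with library scaling. The dnmt1 to uhrf1 ratio was 1.90, 4.93, 2.21 and 2.01 in libraries 1 to 4, so that library 2 stood apart from the others, which did not pass 2.21. The dnmt1 to tet3 ratio was 1.496, 3.15, 2.75 and 3.55, lowest in library 1. The uhrf1 to tet3 ratio changed most of the 10 ratios, by 2.76 times between libraries 2 and 4, and the tet1 to tet2 ratio least, by 1.40 times. Summed over the 3 TET genes, the level was 87.9, 48.7, 63.3 and 53.0 CPM, which gave 1.09, 0.549, 0.730 and 0.589 TET reads per dnmt1 read. This ratio was highest in library 1. Only its change between libraries is read, since its level depends on transcript length.

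The division of TET reads also differed between libraries. tet3 took 61.5% of them in library 1 (95% Wilson interval 59.5% to 63.5%), 57.9% in library 2 (55.8% to 60.1%), 49.8% in library 3 (47.7% to 51.9%) and 47.9% in library 4 (45.4% to 50.3%). tet2 took 12.7%, 17.2%, 18.7% and 19.5% of TET reads in libraries 1 to 4. tet1 took 25.8%, 24.9%, 31.6% and 32.6%. The intervals of tet3 in libraries 1 and 2 lay above those in libraries 3 and 4. These and the Poisson intervals cover only the counting error of independent reads. Reads after amplification are not independent molecules, so the intervals may be too narrow. Shares of different genes depend on transcript length.

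**Figure D3:**
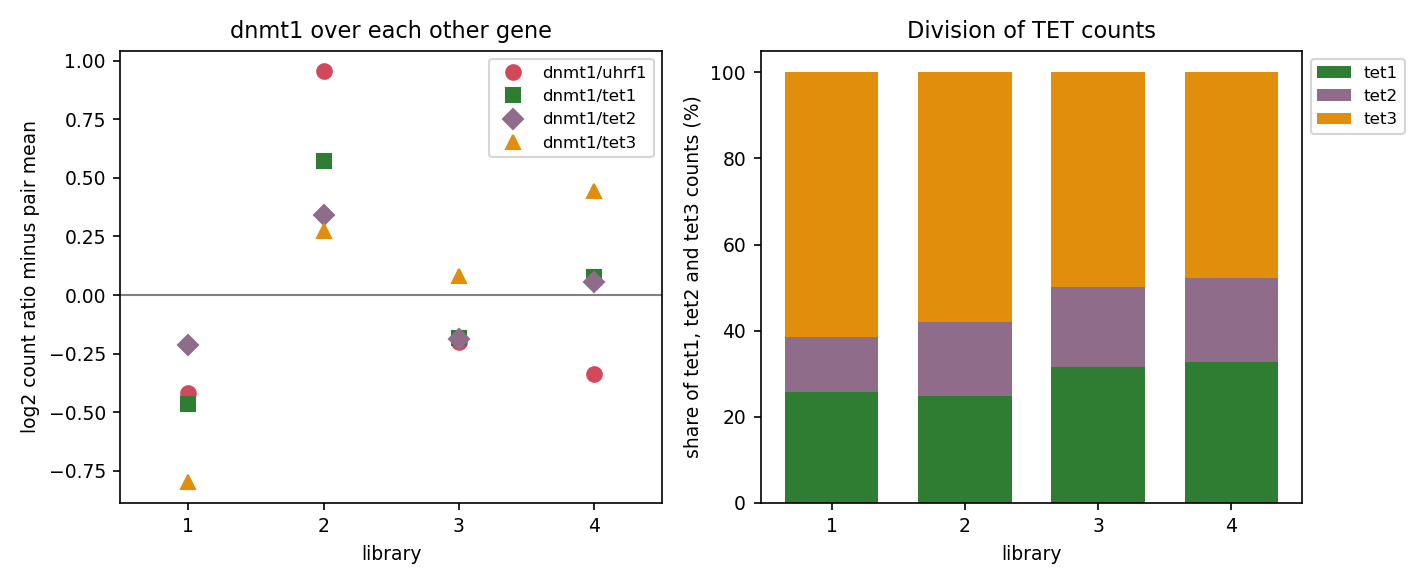
Left, log2 ratio of dnmt1 counts to those of each other gene, minus the mean of that pair, by library. Right, percent of all tet1, tet2 and tet3 counts taken by each gene, by library. The dnmt1 to uhrf1 point stands highest in library 2, and the tet3 share is 61.5% in library 1 against 47.9% in library 4.

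De novo methyltransferases methylate unmodified CpG. Of their 2 genes at 1 CPM or more in every library, 1 was highest in library 2 and 1 lowest. Among the 13479 genes at this level, 34.7% were highest and 36.6% lowest there. dnmt3a had 13.5, 3.28, 12.9 and 10.1 CPM in libraries 1 to 4, lowest in library 2. The gene listed as LOC107391197, which RefSeq names dnmt3ba, had 14.05, 24.3, 14.1 and 19.3 CPM, highest in library 2. The gene listed as dnmt3b, below 1 CPM in library 1, had 0.962, 3.35, 1.06 and 2.08 CPM from 25 to 138 reads, also highest in library 2. Of 15 names searched for this list, 3 genes were found.

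Genes found for the maintenance step were all expressed, with 12 of 12 at 1 CPM or more in every library, a level that 53.7% of all genes reached. The search covered 15 names. pcna, the sliding clamp that recruits DNMT1 to the fork, had 2539, 5588, 1822 and 3377 CPM, and the histone chaperone subunit gene chaf1b 18.6, 60.7, 21.1 and 47.2 CPM. Both were highest in library 2, where uhrf1 was lowest. Of the 12 genes, 6 were highest in library 2 and 2 lowest, against 34.7% and 36.6% of the 13479 genes. hells, a chromatin remodeller needed for methylation of packed chromatin, had 56.7, 58.7, 73.7 and 87.3 CPM, and cdca7, its activator, 96.9, 137.2, 93.8 and 152.5 CPM. uhrf2, the paralog of uhrf1, had 22.2, 16.3, 24.3 and 20.3 CPM, lowest in library 2 by a smaller margin. The histone methyltransferase gene ehmt2, at 12.6 to 13.1 CPM, was the exception among these genes in not differing beyond counting noise, with an adjusted chi-square p of 0.944.

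Genes found that act after TET oxidation were likewise expressed, with 16 of 16 at 1 CPM or more in every library. Of all genes, 53.7% reached this level. The search covered 24 names. The list was meant for base excision and GADD45 genes, but 1 of the 16, gadd45gip1, encodes a mitochondrial ribosome protein outside that family. tdg, the glycosylase that removes oxidised cytosine, had 65.9, 84.1, 48.8 and 70.3 CPM. apex1, which cuts the strand at the emptied site, had 790, 2037, 513 and 1131 CPM, and the glycosylase gene neil1 had 24.5, 51.2, 16.4 and 37.5 CPM. In 11 of the other 15 genes library 2 was the highest, against 34.7% of the 13479 genes at 1 CPM or more, and in 11 of 15 library 3 was the lowest, against 38.7%. With TMM scaling these counts were 13 and 9 of 15, against 36.2% and 24.9% of the 13479. Of dnmt1, uhrf1 and the TET genes, 0 were highest in library 2 and 3 were lowest there, against 36.6% of the 13479. In library 1, 2 of the 5 were highest, against 33.1% of the 13479, and in library 4, 2 of the 5, against 18.2%. These last counts change with the scaling: with TMM, dnmt1, tet1 and tet2 were highest in library 3, against 28.6% of the 13479. With TMM, 1 gene was highest in library 1, against 20.2% of the 13479, and 1 in library 4, against 15%. In library 2, 0 of the 5 were highest with TMM, against 36.2% of the 13479, and 3 were lowest, against 36.6%.

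Among TET cofactor and regulator genes, 11 of 13 listed were expressed, from 20 names searched, against 53.7% of all genes. Of these 11, 6 were highest in library 2 and 2 lowest, against 34.7% and 36.6% of the 13479 genes. In library 1, 2 of the 11 were highest, against 33.1%. idh3a, a subunit of the mitochondrial enzyme that makes 2-oxoglutarate, had 14.4, 103.1, 12.5 and 60.0 CPM, highest in libraries 2 and 4. The listed genes of its other subunits varied less. idh3b had 69.5, 93.7, 57.9 and 82.9 CPM, and idh3g had 140.7, 116.7, 77.4 and 96.1 CPM, highest in library 1. idh2, listed as LOC107388798, had 229.1, 333.8, 137.5 and 202.0 CPM. The gene vprbp, known in mouse for an adaptor that brings a ubiquitin ligase to TET proteins, had 14.7, 6.07, 16.2 and 17.8 CPM, lowest in library 2. ogt, whose glycosyltransferase binds TET proteins in mammals, had 205.4, 152.3, 139.5 and 135.9 CPM, highest in library 1.

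Genes of the methyl donor cycle were expressed in 14 of the 17 cases found from 22 names searched, against 53.7% of all genes. mat2a, which makes S-adenosylmethionine, had 250.5, 178.2, 169.0 and 211.6 CPM, and ahcy, which clears the product left after methylation, had 245.6, 180.6, 260.9 and 247.4 CPM. Genes of the methyl-CpG-binding domain family and of methyl-CpG-binding zinc finger proteins were expressed in 8 of 9 cases, against 53.7% of all genes. For this group 13 names were searched. The exception, zbtb38, had 0 reads in library 4, where a limit of 3 counts allows up to 0.101 CPM for counting error. It had 0.577 to 0.971 CPM in the others. Of the family, MBD5 and MBD6 are not known as readers of methylated CpG in mammals. mbd5 had 12.1, 4.71, 12.8 and 13.6 CPM and mbd6 8.39, 3.20, 8.72 and 9.09 CPM, both lowest in library 2. mbd2, listed as LOC107375055, went the other way with 9.35, 28.6, 5.57 and 13.6 CPM. Of the 8 expressed genes of this group, 5 were lowest in library 2 and 3 highest, against 36.6% and 34.7% of the 13479 genes. The tRNA methyltransferase gene trdmt1, a relative of the DNA enzymes, had 42.0, 30.6, 31.0 and 33.2 CPM.

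Over all these lists, 64 of 71 genes were expressed, against 53.7% of all genes, and 32 of the 64 were highest in library 2, against 34.7% of the 13479 genes. Their median ratio of highest to lowest library was 1.85, close to the 1.77 of all 13479. In the same library, the summed enveloping layer markers were lowest, at 83.6 CPM, and the summed somite and muscle precursor markers were 429.7 CPM, against 305.9, 283.6 and 422.7 CPM in libraries 1, 3 and 4. The other marker sums were likewise highest in library 2 except those for yolk: in libraries 1 to 4 they were 53.5, 121.3, 54.2 and 97.4 CPM for notochord and Kupffer's vesicle and 268.4, 363.3, 242.4 and 350.2 CPM for neural tube. Those for blood were 26.5, 40.1, 19.98 and 37.6 CPM, and those for germ cells 10.6, 21.5, 12.97 and 20.02 CPM. The yolk and neural tube sums each hid a split. Of the 7 expressed yolk markers, 2 were highest in library 2 and 3 lowest, against 34.7% and 36.6% of the 13479 genes. In that library apoeb and apoba (LOC107391704) had 147.8 and 3.08 CPM, their highest. apoa2, ttr and rbp4 had 7.57, 3.69 and 11.1 CPM in it, their lowest. Of the 6 expressed neural tube markers, 2 were highest in library 2 and 3 lowest, against 34.7% and 36.6% of the 13479 genes. sox3 had 200.7 CPM there, its highest. sox2, pax6 and elavl3 had 9.44, 8.64 and 34.5 CPM there, against 18.9 to 26.2, 20.2 to 21.7 and 51.0 to 58.1 CPM in the others. The part of all these cell type markers, of depth and of stage in the low uhrf1 of library 2 was not tested. In pooled bodies, fewer cells with a transcript and less transcript per cell cannot be told apart.

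**Figure D4:**
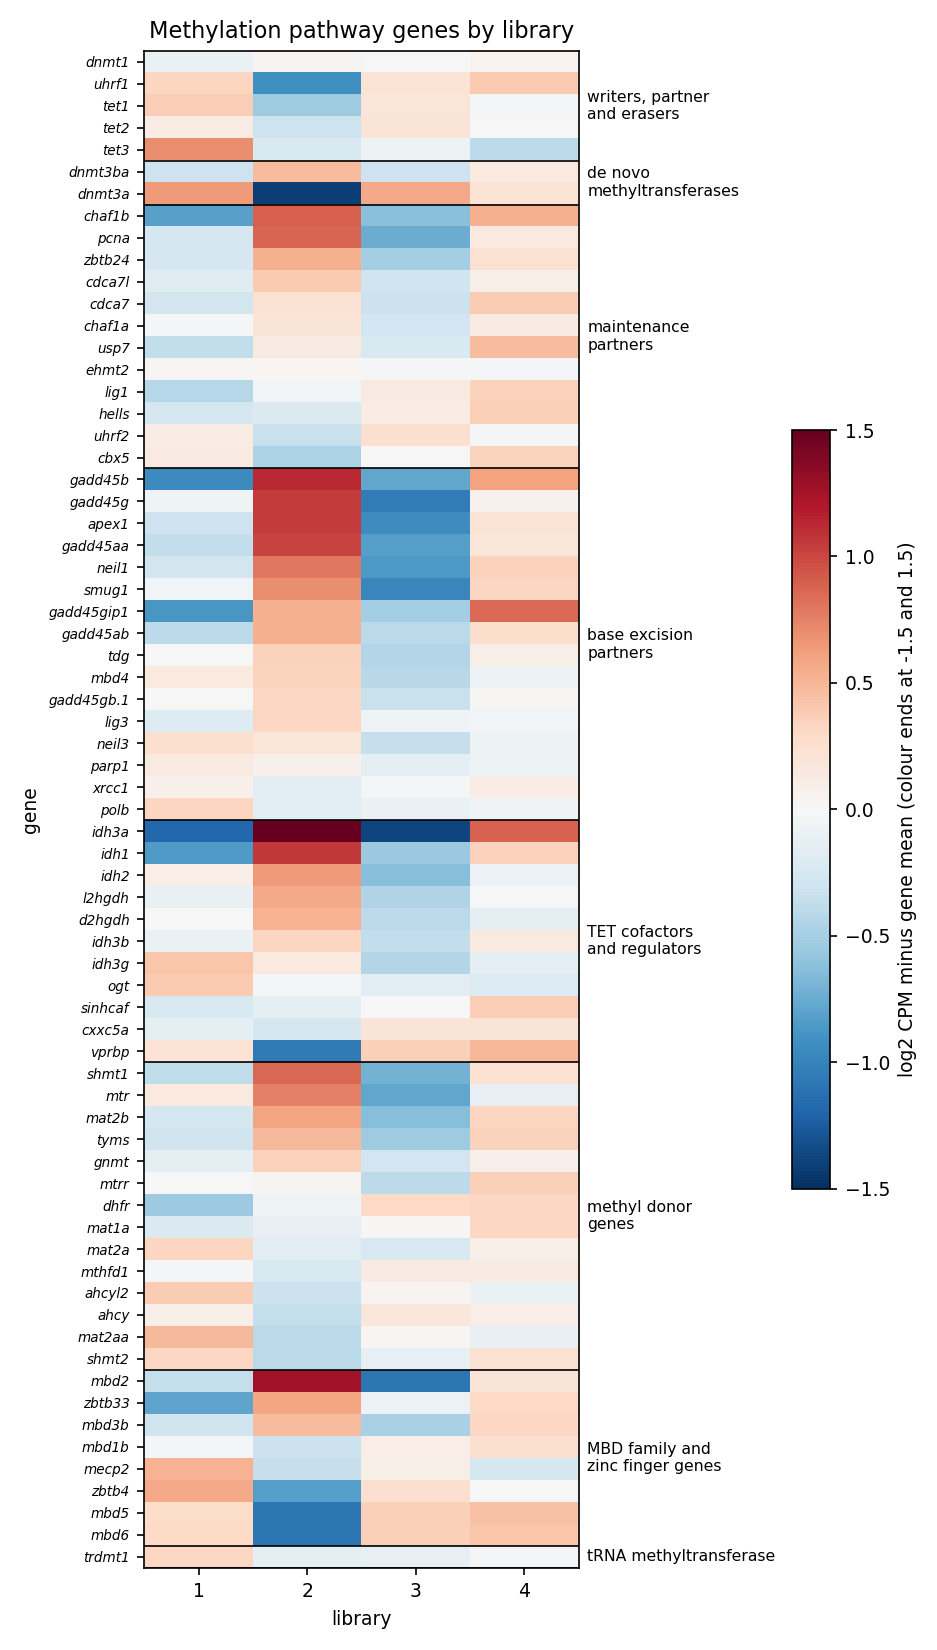
Deviation of log2 CPM from the gene's mean, by library, for the 5 genes and the 64 expressed pathway genes, grouped by list, with red above and blue below the mean and colours ending at -1.5 and 1.5. Within each pathway list, genes run by their deviation in library 2, while the 5 genes keep a fixed order. In library 2, uhrf1, dnmt3a, mbd5 and mbd6 are below their means and idh3a, mbd2 and gadd45b above.

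Profiles over the 4 libraries were compared with those of all 9150 genes at 5 CPM or more, by the root mean square difference of log2 CPM after centring each gene. The nearest to dnmt1 was the splicing factor gene prpf3, with a difference of 0.0120, and its next neighbours were pmf1 (LOC107376834, 0.0142) and LOC107374142 (0.0154). The nearest to uhrf1 were hs6st1 at 0.0341, pax6 at 0.0406 and fn1a (LOC107390187) at 0.0415, and pax6 had 20.6, 8.64, 20.2 and 21.7 CPM. For tet1 they included pxna (LOC107385500) at 0.0191 and dctn6 at 0.0210, for tet2 they were ppp1r10, rbpj and snx24, at 0.0114 to 0.0181, and for tet3 LOC107372892, ube2a and ust, at 0.0477 to 0.0525. With only 4 libraries many genes fall close by, and the list describes these pools alone. Within the 5 genes the closest profiles were those of tet1 and tet2, at 0.172, which placed tet2 at rank 1082 among the neighbours of tet1. uhrf1 and tet3 were the farthest apart, at 0.572.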

How the data were processed

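Gene expression was measured by RNA-seq in 4 African turquoise killifish pools, grouped by sample title, with each column matched to its title. The authors deposited whole-number read counts per gene without normalization. By their methods and the submitters' processing notes, reads were trimmed with Trim Galore 0.4.5, aligned with STAR 2.7.1a, restricted to single-locus reads with SAMtools 1.5 and counted with featureCounts of Subread 2.0.1, on the Nfu_20140520 genome. The cDNA was amplified over 12 cycles. The single-locus filter drops reads that match near-identical copies equally well. A strand setting was not given in the sources used here, so overlapping antisense reads cannot be told apart.

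CPM on library totals, chi-square tests and exact Poisson and Wilson intervals were obtained in Python 3.11.15 (scipy 1.17.1, numpy 2.4.6, pandas 2.3.3), with plots by matplotlib 3.10.9. TMM factors and dispersions (intercept only, filterByExpr) came from edgeR 4.0.16 in R 4.3.3, and alternative size factors from DESeq2 1.42.0. The chi-square and dispersion steps were tested on simulated data. With 1 group, no test between conditions was possible. For log2 ratios within a library, with 1 count added, a two-sided exact permutation test that flips signs cannot go below 0.125 in 4 libraries, and since the intended division by coding length was not run for want of lengths, the sign of a ratio between genes was not interpreted. It was the same in 4 of 4 libraries for 9 of the 10 pairs.

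Of 14589 genes given a numbered LOC identifier, 10480 carry a number that RefSeq also lists for its NfurGRZ-RIMD1 assembly, 5257 of them with a symbol, which served for names only because the builds differ. Sequences and coordinates are not used here. The genes and lists were chosen with earlier results of these data known. The text names the 5 genes, listed genes of the pathway and marker lists, and for each of the 5 the 3 genes of nearest profile, except 1 neighbour of tet1 that is not reported here. A gene was called expressed at 1 CPM in every library. Alternatives covered library scaling, the expression limit, the pseudocount, the count filter, RefSeq names and leaving out each library.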

Additional observations from a re-analysis of the deposited data

Results flagged for a closer look

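Dixon's test for a single library apart from the other 3 was applied to 86 groups of values, the 5 genes, the 10 ratios between them and 71 pathway genes. It marked 4 groups, about the 1 in 20 that chance gives, and all 4 in library 2. The log2 ratio of dnmt1 to uhrf1 was 2.30 in library 2, against 0.93 to 1.14 in the other libraries. mbd5 had 4.71 CPM in library 2, against 12.1 to 13.6 CPM, and mbd6 had 3.20 CPM, against 8.39 to 9.09 CPM. bhmt, listed as LOC107374849, had 2.18 CPM in library 2, against 0.847 to 1.07 CPM. The level of uhrf1 itself was not marked.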

How the results depend on the processing

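Of 213 alternative values, 206 kept their direction and their side of the threshold, or moved by less than the limit set for them. Many of them could not have failed, so this count is not a measure of robustness. Leaving out a library cannot move a mean level past its limit, the SD between libraries. A mean log2 ratio with the same sign in every library keeps that sign when a library is left out. All 5 genes stayed expressed at 0.5 and 5 CPM, with a mean of 1 CPM, with TMM scaling and with any library left out. Of these settings, only 5 CPM and TMM scaling could have removed a gene that passed 1 CPM in every library. With each library left out in turn, the ratio of highest to lowest library ranged from 1.14 to 2.49 for uhrf1, lowest without library 2, and from 1.24 to 2.13 for tet3, lowest without library 1. The log2 ratio of uhrf1 to tet3, 0.04 over all libraries, ranged from -0.23 to 0.26, and was -0.06 without library 3 and -0.23 without library 4. Between 4 and 5 of the 5 genes differed beyond counting noise, with dnmt1 lost without library 1 and tet2 without library 2. Among all genes tested, 14935 of 18799 differed without library 1 and 13544 of 18397 without library 2. The biological coefficient of variation of uhrf1 was 0.203 without library 2. The alternatives for these ratios of highest to lowest, for this coefficient and for which library was highest or lowest were chosen after the data were seen. Scaling changed the spread of dnmt1 most among the 5 genes, to 1.26 with TMM and 1.23 with DESeq2 size factors. The causes were not tested. Of 55 pathway genes named in the table itself, 49 were expressed at 1 CPM in every library and 40 at 5 CPM. Of all genes, 53.7% and 36.4% passed these limits. No paired analysis was possible because only libraries of 1 group were analysed.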
